A study of Mus musculus with 22 samples.

Results

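The receptors of the interleukin-6 family in mouse liver were followed together with the kinases, the transcription factor and the inhibitors that act below them. They comprise 9 genes: the receptor chains Il6ra, Il6st, Osmr and Lifr, the kinases Jak1 and Jak2, the transcription factor Stat3, and the inhibitors Socs1 and Socs3. Their probe sets were those annotated to 1 of these symbols and to no other gene, which gave 25 of 45101 probe sets on the array and 9 of 18194 genes. No measured value entered this choice, although it was made with earlier results of these arrays known.

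Livers came from male C57BL6 mice, 8 weeks of age at the start, that received diclofenac sodium, a non-steroidal anti-inflammatory drug, at 30 mg/kg by daily intraperitoneal injection, or saline in the same volume. Whole liver RNA of mice killed after 1, 3 or 14 days was hybridised to Affymetrix Mouse 430 2.0 arrays, 1 mouse per array. The files hold 3 diclofenac and 3 saline livers for each of days 1 and 3, and 5 of either treatment for day 14, whereas the labels give 5 mice for each group and the methods give 6. The animals carried no genetic change, and all p-values describe the spread between these livers.

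Interleukin-6 and its relatives signal through receptor complexes that share the chain gp130, the product of Il6st. Binding of the ligand activates JAK kinases on the receptor tails, which phosphorylate STAT3, and STAT3 then enters the nucleus and switches on its target genes. In hepatocytes this drives the acute-phase response, the secretion of plasma proteins during inflammation, and it induces Socs3, whose product binds gp130 and the kinases and shuts the signal down. Phosphorylation and protein were not measured on these arrays, which report RNA.

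STAT proteins bind the palindrome TTCNNNGAA, where N is any base, and Socs3 is a textbook target of STAT3. The 250 bases before the start of each member were searched for these letters, a motif that reads the same on both strands. Socs3 was the 1 member of 9 with a match, and 7.02% of all 32851 RefSeq promoters of that length (GRCm38.p6) held one. The Socs3 window lies at chr11:117969367-117969616 on the minus strand and is shown whole because it was the only member window with a match. Capitals mark the match, which begins 154 bases before the start.
Socs3: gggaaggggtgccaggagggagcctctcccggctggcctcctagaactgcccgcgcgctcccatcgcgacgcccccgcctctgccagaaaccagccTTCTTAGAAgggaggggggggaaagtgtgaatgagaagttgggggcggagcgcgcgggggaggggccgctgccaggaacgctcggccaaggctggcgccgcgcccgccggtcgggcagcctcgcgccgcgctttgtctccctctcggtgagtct

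A list of 32 genes known as STAT3 targets or acute-phase genes was searched in the same way, and 6 of the 25 genes with a promoter entry held a match. By promoter this was 6 of 30 (20.0%), against 7.02% of all promoters, a difference that was not tested. Of the 6 matches, 5 are shown with 10 bases on either side so that they can be read beside the Socs3 match, again with the motif in capitals. Fga and Fgb encode fibrinogen chains, Steap4 a metalloreductase, Irf1 a transcription factor and Icam1 an adhesion molecule.
Socs3 (chr11:117969512-117969520, minus strand): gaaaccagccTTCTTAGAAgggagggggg
Steap4 (chr5:7960356-7960364, plus strand): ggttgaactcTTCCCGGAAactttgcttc
Icam1 (chr9:21015898-21015906, plus strand): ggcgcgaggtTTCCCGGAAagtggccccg
Fga (chr3:83025919-83025927, plus strand): aggcccccatTTCCTGGAAtgtagattcc
Fgb (chr3:83050017-83050025, minus strand): gactcaatgaTTCGAGGAAccccctgtgt
Irf1 (chr11:53769924-53769932, plus strand): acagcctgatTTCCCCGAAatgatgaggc
Steap4 and Icam1 carried the same 9 letters. A match describes the letters and not a bound site, and binding was not measured here.

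The arrays carry MAS5 signals, linear intensities that were scaled to the same trimmed mean on every array. For each gene the probe set of highest mean signal is reported, and a gene was tested where it exceeded the array's own median, 75.2 to 89.9 signal units, on at least 3 arrays. Of the 9 members, 8 passed this filter at every time. Socs1 was above the array median on 3 of 22 arrays and was tested only in the model of all arrays. Signals of different genes come from different probes and are not compared with each other.

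Diclofenac livers carried higher Stat3 signals than saline livers at each time, and Stat3 was the member that passed the test. Socs3 was higher by a larger factor, but the livers were far apart from each other. Il6st, Il6ra and Osmr tended the same way with smaller or less even differences, Lifr lay lower after diclofenac, and Jak1 and Jak2 stayed close to their saline levels.

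Stat3 encodes the transcription factor through which gp130 signals. At day 1 its signal was 2924, 5137 and 2955 in diclofenac livers and 1877, 1839 and 2193 in saline livers. At day 3 it was 5365, 4508 and 3807 in diclofenac livers and 2156, 2636 and 1924 in saline livers. Every diclofenac liver lay above every saline liver at both times. At day 14 the signal was 4627, 3261, 10311, 2618 and 4118 in diclofenac livers and 2039.5, 2592, 2582, 1983 and 3104 in saline livers. There the groups overlapped, since the lowest diclofenac liver fell below the highest saline liver, and diclofenac replicate 3 stood far above the other livers.

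Between diclofenac and saline, Stat3 differed on the log2 scale by 0.85 (SE 0.20) at day 1, by 1.02 (SE 0.20) at day 3 and by 0.86 (SE 0.31) at day 14, that is 1.80-fold, 2.03-fold and 1.82-fold. In limma, with Benjamini-Hochberg adjustment over 12884 genes at days 1 and 3 and 11884 at day 14, the adjusted p was 0.231, 0.0777 and 0.356. Taken over days 1 and 3 together, Stat3 rose by 0.94 (SE 0.14, adjusted p = 0.0131), and taken over the 3 times it rose by 0.91 (SE 0.18, 95% interval 0.54 to 1.29, adjusted p = 0.0106 in limma). It was the 1 member called of 8 tested over days 1 and 3, where 0.675% of all genes were called and 0.505% were called higher. It was likewise the 1 member called of 9 tested over the 3 times, where 1.68% of 13340 genes were called and 1.24% were called higher. Leaving out 1 liver moved the count over all genes between 16 (without diclofenac day 3 replicate 1) and 326 (without diclofenac day 1 replicate 3) over days 1 and 3, where it was 87. Over the 3 times it moved between 108 (without diclofenac day 3 replicate 1) and 536 (without diclofenac day 14 replicate 3), where it was 224.

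Without diclofenac replicate 3 the day 14 difference of Stat3 was 0.56. The call over the 3 times held when any 1 of the 22 livers was left out, with a limma adjusted p between 0.000588 and 0.0354. The call over days 1 and 3 was lost without saline day 1 replicate 2 (adjusted p = 0.0516) and without diclofenac day 3 replicate 1 (adjusted p = 0.0529). It was also lost when all 22 arrays were fitted in one model (adjusted p = 0.119). At day 3 alone, Stat3 passed without diclofenac day 1 replicate 2, which entered the shared estimate of spread (adjusted p = 0.00404), and when that day was fitted on its own arrays (adjusted p = 0.0135). For a single gene at day 14, the exact permutation test over the 10 livers gave a two-sided p of 0.0159, unadjusted. With 3 livers in each group that test cannot go below 0.10.

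Of the 4 Stat3 probe sets, a second bright one also exceeded the median on every array. It showed log2 differences of 1.05, 1.19 and 0.92 at days 1, 3 and 14, and rose over the 3 times by 1.05 (SE 0.18, limma adjusted p = 0.0048 with every probe set tested on its own). Its signal was 7324, 5639.9 and 4856 in diclofenac livers at day 3, and 2334, 3007 and 2420.2 in saline livers. The remaining pair of Stat3 probe sets was dim and not above the median on every array, and one of them had a log2 difference of -0.44 at day 14.

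**Figure D1:**
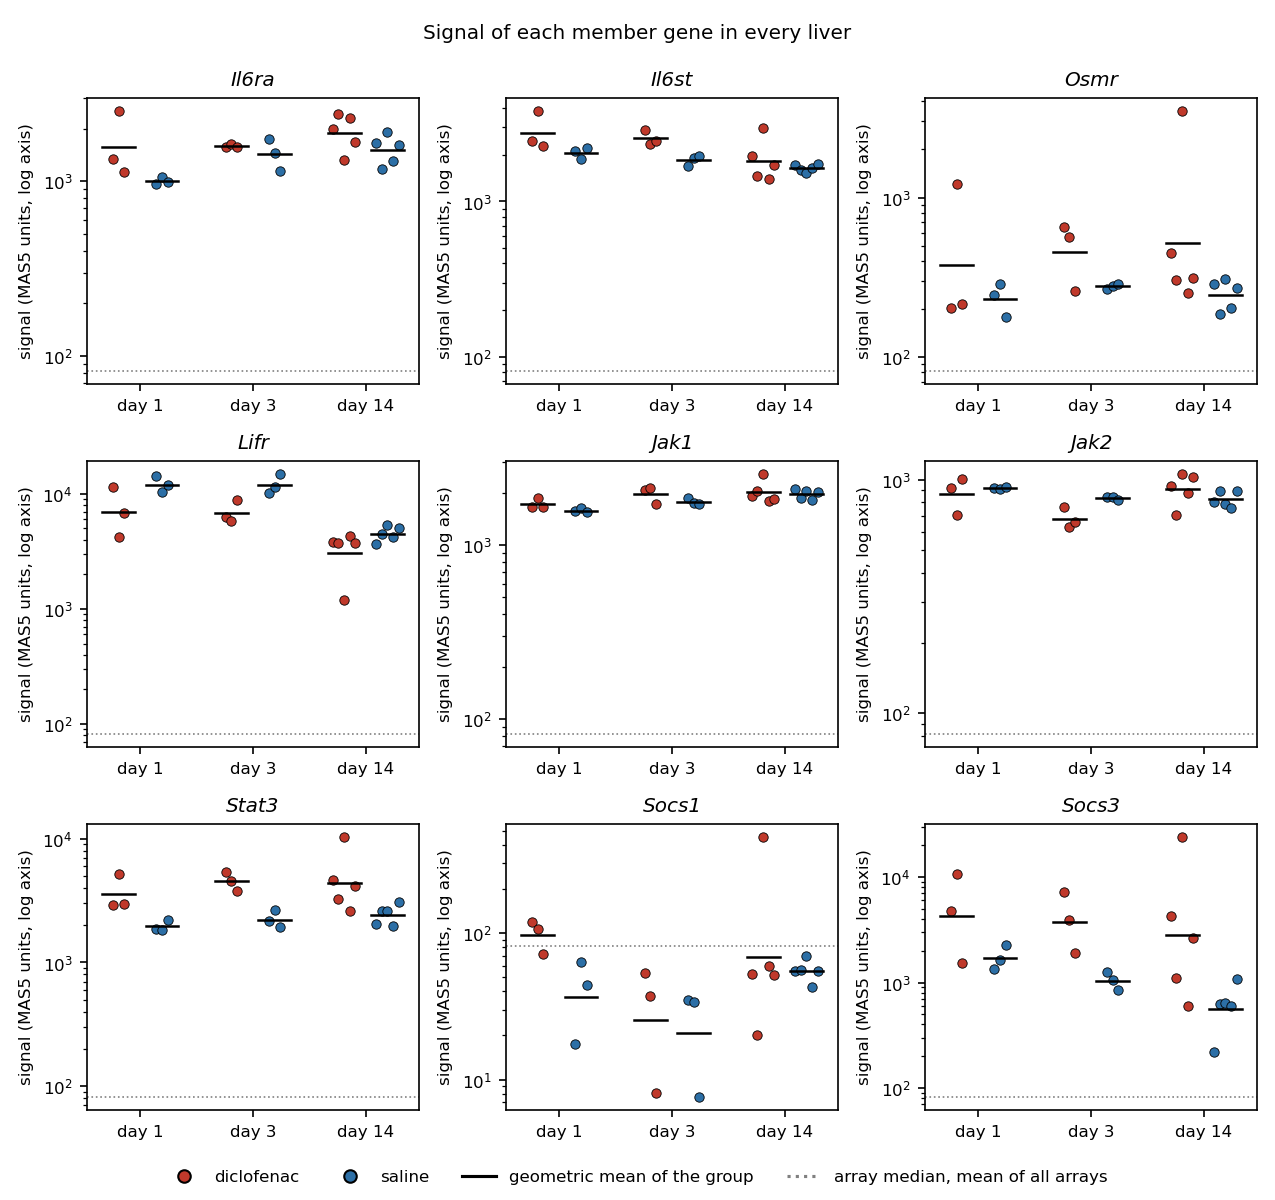
Signal of the 9 member genes in each liver, on a log axis in MAS5 units, with diclofenac livers in red and saline livers in blue at days 1, 3 and 14. Bars give the geometric mean of a group and the dotted line the mean of the array medians. Stat3 separates the groups at days 1 and 3, diclofenac replicate 3 at day 14 lies far from its group in Osmr, Lifr, Stat3, Socs1 and Socs3, and Socs1 is mostly below the dotted line.

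Socs3 encodes the feedback inhibitor of the pathway. At day 1 its signal was 4802, 10616 and 1534 in diclofenac livers and 1334, 1624 and 2282 in saline livers. Day 3 signals were 7175, 3931 and 1907 in diclofenac livers and 1267, 1047 and 847 in saline livers. The groups separated at day 3 but not at day 1, where diclofenac replicate 3 lay among the saline livers. At day 14 the signal was 4247, 1107, 24014, 604 and 2619.9 in diclofenac livers and 218, 628, 646, 602 and 1074 in saline livers. Diclofenac replicate 4 was at the level of saline, and replicate 3 stood 38.2 times above the saline median.

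The log2 differences of Socs3 were 1.33 (SE 0.57) at day 1, 1.86 (SE 0.57) at day 3 and 2.32 (SE 0.83) at day 14, or 2.51-fold, 3.63-fold and 5.00-fold. None passed the test in limma, with adjusted p of 0.36, 0.254 and 0.356. The difference over days 1 and 3 was 1.59 (adjusted p = 0.0908) and that over the 3 times 1.84 (SE 0.50, 95% interval 0.80 to 2.87, adjusted p = 0.0619). The exact permutation test at day 14 gave a two-sided p of 0.0476, unadjusted.

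At day 1 the Socs3 difference was 0.67 without diclofenac replicate 2 and 2.07 without replicate 3. The result over the 3 times lay close to the threshold. Leaving out diclofenac day 1 replicate 3, or diclofenac day 14 replicate 2, 3 or 4, brought the limma adjusted p to between 0.0173 and 0.0463. Of these, day 1 replicate 3 had a Socs3 signal among the saline livers, whereas day 14 replicate 3 had the highest signal of all. Over days 1 and 3 the difference passed without diclofenac day 1 replicate 3 (1.96, adjusted p = 0.011) and without day 3 replicate 3 (1.84, adjusted p = 0.0473). Without day 14 replicate 3 the day 14 difference was 1.55 (limma adjusted p = 0.219).

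All 3 Socs3 probe sets were above the array median in all livers, and all had positive differences at each time. The suffix x marks probe sets, 2 of these 3, in which some probes may also bind other sequences. The probe set without it differed by 0.76, 1.73 and 1.62 on the log2 scale across the 3 times. Its difference over the 3 times was 1.37 (SE 0.43, limma adjusted p = 0.121).

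The differences of Stat3 and Socs3 at day 3 did not exceed those at day 1 beyond the error. The day 3 difference minus the day 1 difference was 0.17 (95% interval -0.45 to 0.80) for Stat3 and 0.53 (-1.23 to 2.29) for Socs3. The day 14 difference minus the mean of days 1 and 3 was -0.074 (-0.80 to 0.66) for Stat3 and 0.73 (-1.29 to 2.75) for Socs3. No member was called in either of these comparisons, in which 0 and 3 of all genes were called by limma (0% and 0.0225%) and 694 and 861 had an unadjusted p under 0.05. The intervals are wide enough to hold sizeable differences between single and repeated treatment.

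Socs1 encodes a second inhibitor, which binds the JAK kinases and is best known from interferon signalling. Its signal was 118, 107 and 71.7 in diclofenac livers at day 1 and 17.4, 63.2 and 44.3 in saline livers. At day 14 it was 452 in diclofenac replicate 3, between 20.0 and 59.8 in the other diclofenac livers and between 43.2 and 69.9 in saline livers. The 3 arrays above their median were diclofenac day 1 replicates 1 and 2 and day 14 replicate 3. The difference over the 3 times was 0.67 (SE 0.48, limma adjusted p = 0.469), in a range of signals where MAS5 values are poorly measured.

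Il6st encodes gp130, the shared signalling chain. Its signal was 2428, 3803 and 2260.2 in diclofenac livers at day 1, against 2105, 1878 and 2197 in saline livers. At day 3 it was 2867, 2348 and 2445 in diclofenac livers and 1688, 1895 and 1956 in saline livers. The groups did not overlap at either time. At day 14 the signal was 1943, 1463, 2972, 1389 and 1706 in diclofenac livers and 1704, 1585, 1524, 1631 and 1734 in saline livers, and the groups were mixed.

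The log2 differences of Il6st were 0.42, 0.47 and 0.16 at days 1, 3 and 14. Over days 1 and 3 the difference was 0.44 (SE 0.12, adjusted p = 0.1), and over the 3 times 0.35 (95% interval 0.11 to 0.58, adjusted p = 0.121), in limma. It passed over days 1 and 3 without diclofenac day 1 replicate 3 (0.51, adjusted p = 0.0404) and at day 3 without day 1 replicate 2 (0.47, adjusted p = 0.0441). The day 1 difference was 0.19 without diclofenac replicate 2, and the day 14 difference -0.020 without replicate 3. The probe set next in signal gave 0.29, 0.19 and 0.19.

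Il6ra encodes the chain that binds interleukin-6 itself and lets hepatocytes respond to it. At day 1 its signal was 1349, 2536 and 1135 in diclofenac livers, against 966, 1055 and 992 in saline livers, and the groups did not overlap. Day 3 signals were 1573, 1639 and 1578 in diclofenac livers and 1743, 1459 and 1147 in saline livers. At day 14 it was 1991, 2427, 1332, 2319.7 and 1678 in diclofenac livers and 1657, 1181, 1924, 1303 and 1612 in saline livers. The overlap at these 2 times was broad.

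The log2 differences of Il6ra were 0.65, 0.16 and 0.33, and 0.38 (SE 0.13, limma adjusted p = 0.149) over the 3 times. The day 1 difference was 0.30 without diclofenac replicate 2, and the day 3 difference 0.0017 without saline replicate 3. Diclofenac day 14 replicate 3, which was highest in Stat3 and Socs3, had the lowest Il6ra signal of its group. The dimmer Il6ra probe set gave differences of 0.027, 0.15 and 0.032, so that the day 1 difference was not seen with both.

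Osmr encodes the receptor chain for oncostatin M, which pairs with gp130. At day 1 its signal was 203, 1208 and 216 in diclofenac livers and 246, 285 and 177 in saline livers. Day 3 signals were 653, 565 and 259 in diclofenac livers and 269, 277 and 287 in saline livers. At day 14 it was 449, 303, 3485, 252.2 and 315 in diclofenac livers and 285, 186, 309, 202 and 273 in saline livers. A high signal was thus confined to diclofenac day 1 replicate 2, day 3 replicates 1 and 2 and day 14 replicates 1 and 3, and the other diclofenac livers lay near the saline range.

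The log2 differences of Osmr were 0.70, 0.72 and 1.07, and 0.83 (SE 0.39, limma adjusted p = 0.261) over the 3 times. Without diclofenac replicate 2 the day 1 difference was -0.15, and without replicate 3 the day 14 difference was 0.39. The pair of dimmer Osmr probe sets did not exceed the median on every array and gave -0.31 and -0.93 at day 3.

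Lifr encodes the receptor chain for leukaemia inhibitory factor, which also pairs with gp130. Its signal at day 1 was 11514, 4180.5 and 6845 in diclofenac livers, against 14260.1, 10327 and 11799 in saline livers. At day 3 it was 6299, 5793 and 8771 in diclofenac livers and 10064, 11377 and 14839.5 in saline livers, without overlap. At day 14 it was 3831, 3772, 1199, 4269 and 3753 in diclofenac livers and 3625, 4484, 5352, 4180.3 and 5024 in saline livers. Diclofenac replicate 3 at day 14 had the lowest signal of all, while the rest of that group lay within the saline range.

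The log2 differences of Lifr were -0.80 (SE 0.29), -0.80 (SE 0.29) and -0.54 (SE 0.31) at days 1, 3 and 14. They were -0.44 at day 1 without diclofenac replicate 2 and -0.20 at day 14 without replicate 3. Over days 1 and 3 the difference was -0.80 (adjusted p = 0.093) and over the 3 times -0.72 (95% interval -1.13 to -0.30, adjusted p = 0.0694), neither of which passed the test in limma. It passed over the 3 times without diclofenac day 14 replicate 3 (difference -0.60, adjusted p = 0.0132) and without day 1 replicate 1 (-0.84, adjusted p = 0.0232), and over days 1 and 3 without day 1 replicate 1 (-0.99, adjusted p = 0.0143). A second bright probe set gave -0.66, -0.25 and -0.0032, so that the size of the difference after day 1 depended on the probes.

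Jak1 and Jak2 encode kinases that sit on the receptor tails. Jak1 signal ranged from 1657 to 1871 at day 1, from 1735 to 2132 at day 3 and from 1799 to 2570.1 at day 14 in diclofenac livers. In saline livers it ranged from 1546 to 1629.7, from 1727 to 1874 and from 1821 to 2101. The groups separated narrowly at day 1 and overlapped later. The log2 difference over the 3 times was 0.10 (95% interval -0.029 to 0.24, limma adjusted p = 0.398). For this probe set and this mean, the interval leaves room for no more than a small change. A second bright Jak1 probe set gave 0.15, 0.15 and 0.18 at days 1, 3 and 14, and a dimmer one -0.23, 0.12 and 0.32.

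Jak2 signal at day 3 was 761, 629.6 and 660.1 in diclofenac livers and 841, 844 and 816 in saline livers, without overlap. At day 1 it was 923, 705 and 1010.2 in diclofenac livers and 922, 913 and 928 in saline livers. At day 14 it ranged from 707 to 1058 in diclofenac livers and from 755 to 895 in saline livers. The log2 differences were -0.083, -0.29 and 0.15, and -0.075 (95% interval -0.24 to 0.086, limma adjusted p = 0.628) over the 3 times. A dimmer Jak2 probe set gave 0.039, 0.25 and 0.17, the opposite sign at day 3.

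**Figure D2:**
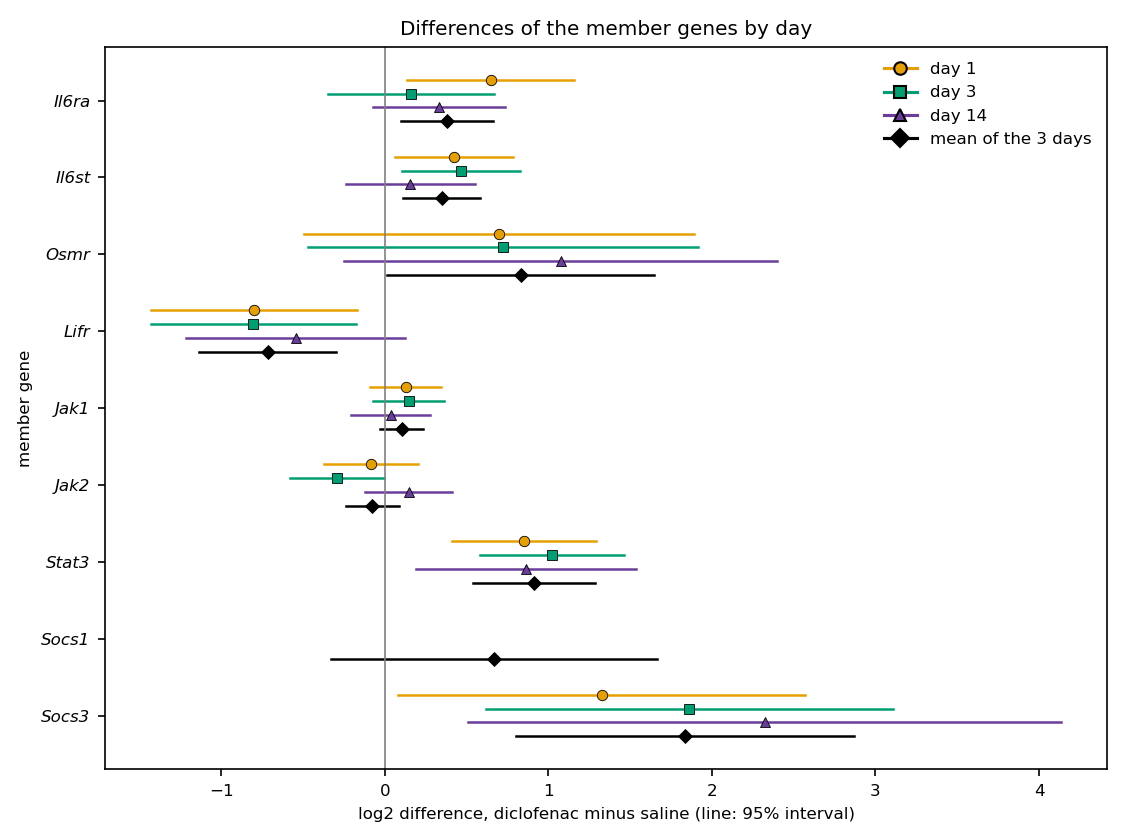
Log2 difference of each member, diclofenac minus saline, at days 1, 3 and 14 and as the mean of the 3 times, with 95% intervals as lines. The interval for the mean lies above 0 for Il6ra, Il6st, Osmr, Stat3 and Socs3, below 0 for Lifr, and includes 0 for Jak1, Jak2 and Socs1, whose single times were not tested. These intervals are unadjusted, and 18.5% of all 13340 genes had an unadjusted limma p under 0.05 for this mean. Stat3 alone passed adjustment over all genes.

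**Figure D3:**
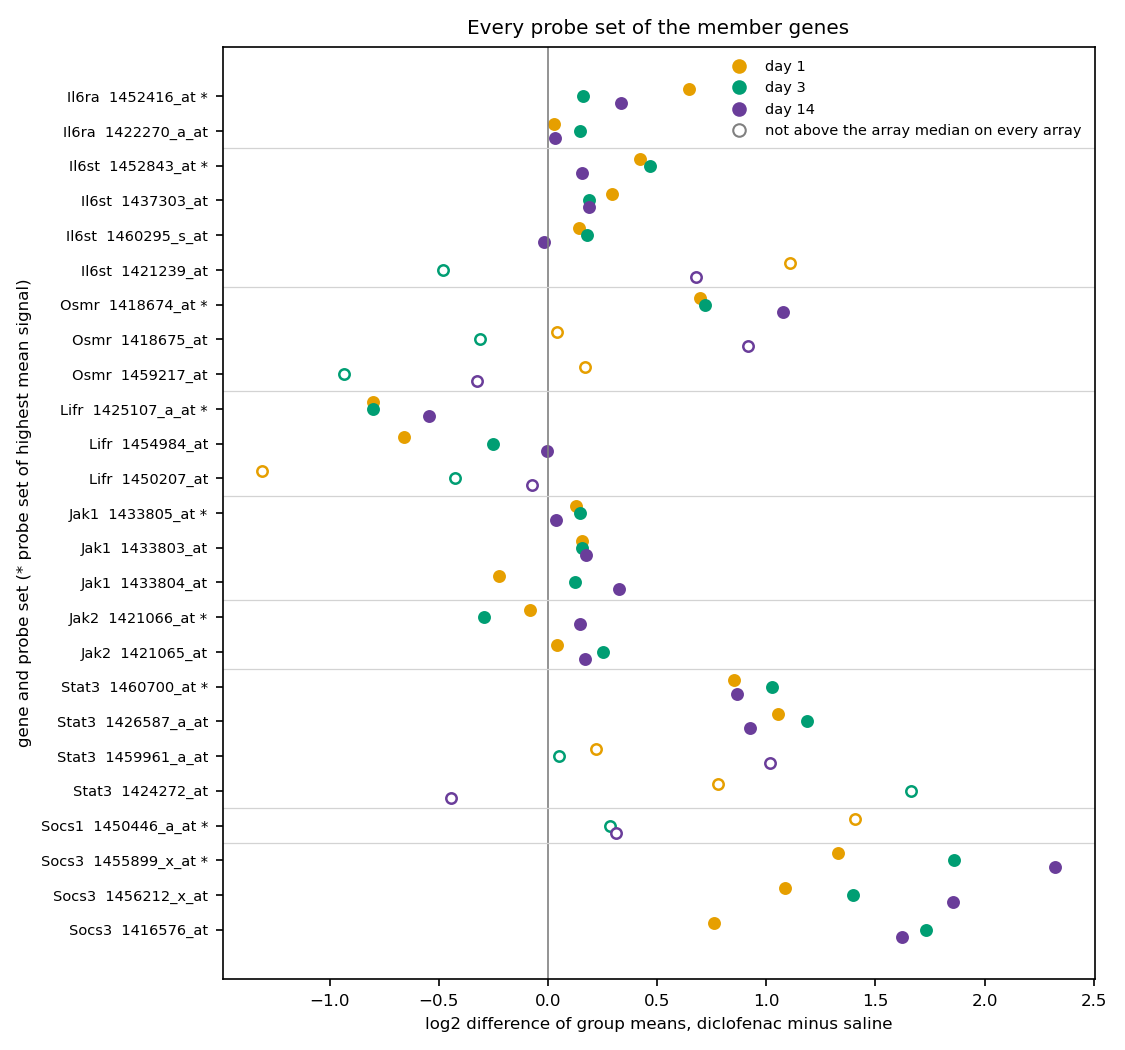
Log2 difference of the group means, diclofenac minus saline, for all 25 probe sets of the members at days 1, 3 and 14. Filled points are probe sets above the array median on all arrays and the star marks the probe set reported for each gene. The 3 Socs3 probe sets and both bright Stat3 probe sets lie above 0 at each time, and the dim probe sets scatter.

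Counted over the members at a single time, none of the 8 tested genes was called at day 1, day 3 or day 14. The share of all genes called was 0% at day 1, 0.202% at day 3 and 0% at day 14, which is 0, 26 and 0 genes. At an unadjusted limma p under 0.05, 1674, 1397 and 1287 genes passed. At day 1 the livers of 4 members (Il6ra, Il6st, Jak1 and Stat3) did not overlap and were higher after diclofenac, as were those of 8.23% of all genes. At day 3 this held for 3 members (Il6st, Stat3 and Socs3) and 10.8% of all genes, and Lifr and Jak2 were lower without overlap, as were 9.21% of all genes. At day 14 no member separated the groups, as 3.78% of all genes did in either direction.

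Under the methods' rule, an unadjusted p under 0.05 at over 1.5-fold, Stat3 and Lifr were called at day 3 and no member at day 1 or 14. That rule called 1.46%, 2.49% and 2.39% of all genes at days 1, 3 and 14. After Benjamini-Hochberg adjustment it called 0 genes at day 3. The methods also name a hypergeometric test with a lower p threshold, which was not run here.

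Diclofenac day 1 replicate 2 and day 14 replicate 3 stood apart from the other livers across the pathway. Both had the highest signal of their group for Il6st, Osmr, Stat3 and Socs3 and the lowest for Lifr. With both left out, a choice made after their values were seen, Stat3 still rose over the 3 times by 0.72 (adjusted p = 0.000603), Socs3 rose by 1.36 (adjusted p = 0.0408) and Lifr fell by 0.48 (adjusted p = 0.0176), in limma. All 3 differences were smaller without these livers. The Osmr difference over the 3 times was then 0.32 (adjusted p = 0.35).

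Over the 22 arrays, after each day's mean was removed, Socs3 and Stat3 signals moved together (r = 0.94 on the log2 scale). Il6st and Stat3 had r = 0.88 and Osmr and Stat3 r = 0.84, while Lifr and Stat3 ran opposite (r = -0.85). For the other members, r with Stat3 was 0.72 for Jak1, 0.63 for Socs1, 0.32 for Il6ra and 0.058 for Jak2. These values describe the arrays, which share treatment and include both livers that stood apart, and carry no test.

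Among 13339 other genes, those whose pattern was most like Socs3 were Serpina10, Efna1, Stat3, Steap4 and H6pd, with r between 0.938 and 0.948 over the 22 arrays. Those most like Stat3 were Serpina10, Snx10, Slc41a2, Steap4 and Atxn7l3b, with r between 0.956 and 0.963. Without the 2 livers farthest from the median in Socs3 or Stat3, r stayed between 0.883 and 0.937. Serpina10 and Steap4 stood in both sets.

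Some genes on the list of STAT3 targets and acute-phase genes rose after diclofenac. None of the 32 genes on that list was called at day 1 or 14, 6 rose at day 3, Saa1, Saa2, Lcn2 and Orm2 among them, 11 rose over days 1 and 3 and 13 over the 3 times, and none fell. Over all genes, 0.202% were called at day 3, 0.675% over days 1 and 3 and 1.68% over the 3 times. Their median log2 difference was 0.59, 0.41 and 0.76 at days 1, 3 and 14, against 0.001, 0.009 and -0.01 over all genes tested. The list was written with earlier results of these arrays known, and its genes also answer to other inflammatory signals.

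Saa2, an acute-phase apolipoprotein, ranged from 33156 to 45204 in diclofenac livers at day 3 and from 1063 to 1682 in saline livers. Its log2 difference over the 3 times was 4.19 (SE 0.55, adjusted p = 0.000451). Lcn2, an iron-binding protein of inflammation, ranged from 8493 to 33467 in diclofenac livers at day 3 and from 490.0 to 1809 in saline livers, with a difference of 4.19 (SE 0.43, adjusted p = 5.8e-05) over the 3 times in limma. At day 14 their signals in saline replicate 1 reached 49011 for Saa2 and 16436 for Lcn2, far above the other saline livers, whereas Socs3 was lowest in that liver (218).

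Further genes stood among the 8 of the STAT3 target list with the largest differences over the 3 times. Orm2, Saa3, Saa1, Steap4 and Serpina3n rose by 3.60, 2.52, 2.27, 1.92 and 1.86 (limma adjusted p from 0.000149 to 0.0496). A2m, the protease inhibitor alpha-2-macroglobulin, had a difference of 2.55 (adjusted p = 0.203) that did not pass the test. Its signal was 90009 in diclofenac day 14 replicate 3 and 2725 in day 1 replicate 2, and at most 159.6 in any other diclofenac liver of days 1 and 3. The Saa and Orm genes are near copies of each other, so that their probe sets may share signal.

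**Figure D4:**
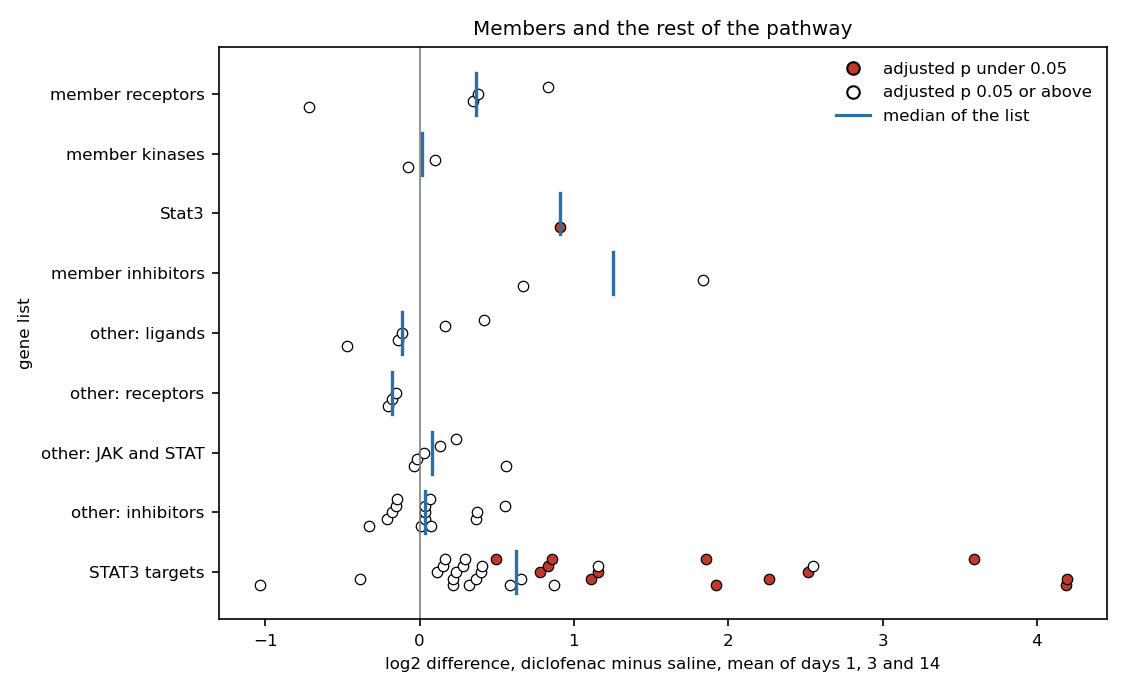
Log2 difference, diclofenac minus saline, as the mean of days 1, 3 and 14 for the members and for the other lists of the pathway, 1 point per gene tested. Red points passed the limma test and blue lines give the median of a list. Of the members Stat3 passed, of the STAT3 targets 13 of 32 passed, and of the other ligands, receptors, kinases, STAT factors and inhibitors none did.

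No other gene of the pathway lists passed the test. Of 10 ligands of the family, 8 had a probe set of their own and 5 were tested at days 1 and 3, with no call in any comparison. Il6, the ligand interleukin-6, exceeded the array median on 1 of 22 arrays, diclofenac day 14 replicate 3, where its signal was 720.0. In the other groups its highest signal was 55.3 in diclofenac livers at day 1 and 39.8 at day 3, and 42.9, 43.1 and 25.5 in saline livers at days 1, 3 and 14. Il6 was thus close to the floor of the array in nearly all livers.

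Of the other receptors of the family and Lepr, the leptin receptor, 3 of 6 were tested and none was called. Lepr signal ranged from 157 to 673 at day 1 and from 111 to 199 at day 3 in diclofenac livers, and from 111 to 194 and from 213 to 407 in saline livers. Its log2 difference was 1.07 at day 1 and -0.98 at day 3, and the change of -2.05 between them had a limma adjusted p of 0.881. At day 14 single livers of both groups, diclofenac replicate 3 with 2837 and saline replicate 3 with 2439, were far above the rest.

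Of 8 other JAK kinases and STAT factors, 6 were tested, and of 14 other inhibitors and phosphatases all 14, with no call. Cish, a SOCS family inhibitor induced by growth hormone, ranged from 1131 to 1687 at day 1 in diclofenac livers and from 2121 to 2638 in saline livers. Its differences were -0.79, -0.50 and 0.76 at days 1, 3 and 14, and -0.64 (limma adjusted p = 0.0529) over days 1 and 3. Ptpn1, a phosphatase that acts on JAK2 among others, had differences of 0.62, 0.62 and 0.42 (adjusted p = 0.0556 over days 1 and 3). At day 14 its median signal was 768 in diclofenac livers and 741 in saline livers, and the highest, 2883, belonged to diclofenac replicate 3. Socs2, a further SOCS family inhibitor, had -0.66, 0.19 and 0.68.

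Whole liver holds several cell types, and fewer cells of a type cannot be told apart from less RNA per cell. Hepatocyte markers were bright in all groups, and none of the 10 was called between diclofenac and saline. Over the 3 times all 10 hepatocyte differences were above 0 (median 0.095), as were 49.2% of all genes tested. All 3 cholangiocyte and all 4 lymphocyte markers tested were also above 0 with no call, under the limit of the filter given below. Of 8 sinusoidal endothelium markers, 4 were above 0 and 1 was called lower. The summed signal of 11 neutrophil markers was 1926, 26519.8 and 2129 in diclofenac livers at day 1 and between 846 and 1422 in saline livers. At day 3 it lay between 2241 and 3924 in diclofenac livers and between 611 and 794 in saline livers. At day 14 it was 2437, 3000.3, 24962, 1577 and 871 in diclofenac livers and between 431 and 704 in saline livers. The livers with the highest sums, day 1 replicate 2 and day 14 replicate 3, were those with the highest Socs3 signals.

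Of the 9 neutrophil markers tested over the 3 times, 3 rose (S100a8, S100a9 and Prtn3) and all 9 differences were above 0. Of all 13340 genes, 1.24% rose and 49.2% had a difference above 0. The filter asks for at least 3 arrays above the median, and a dim gene can reach this through 1 treatment alone. Prtn3 and Ltf exceeded the median on 10 of 22 arrays and Mmp8 on 12, while Camp and Cxcr2, on 1 array each, were not tested. The filter may thus have set part of the count above 0, which is not weighed against the share of all genes. The Kupffer cell sum, of 10 markers, ranged from 28332 to 40902 in diclofenac livers at day 1 against 16212 to 27627 in saline livers. At day 3 it ranged from 21876 to 31647 against 19690 to 20645. For day 14 it was 31249 in diclofenac replicate 3 and 7130 to 11393 in the other diclofenac livers, against 4470.4 to 11634 in saline livers. None of the 10 Kupffer cell markers was called, and all 10 differences were above 0 at each time. Of all genes tested, 50.2%, 51.4% and 47.8% had a difference above 0 at days 1, 3 and 14. The monocyte sum, of 8 markers, was carried by Fn1, which hepatocytes also express (median signal 24005), and is a poor measure of these cells. Lyz2 and Plac8 had medians of 2178 and 984. Ccr2, Chil3, Cx3cr1, Itgam and F13a1 had medians between 42.9 and 80.4, close to the array median or below it. Over the 3 times 2 of the 8 monocyte markers rose and all 8 differences were above 0, with the same limit of the filter. The stellate cell sum ranged from 12407 to 15251 in diclofenac livers at day 1 and from 18769.6 to 21881 in saline livers. It overlapped at day 3 (13823 to 18528 in diclofenac livers, 15210.3 to 18299 in saline livers) and at day 14 (7261 to 18052 in diclofenac livers, 13249 to 19069 in saline livers). Over the 3 times 2 of the 8 stellate cell markers fell, as did 59 of all 13340 genes. Of the 8 differences 7 were below 0, against 6780 of all genes. The part of these cells in the member signals was not tested.

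**Figure D5:**
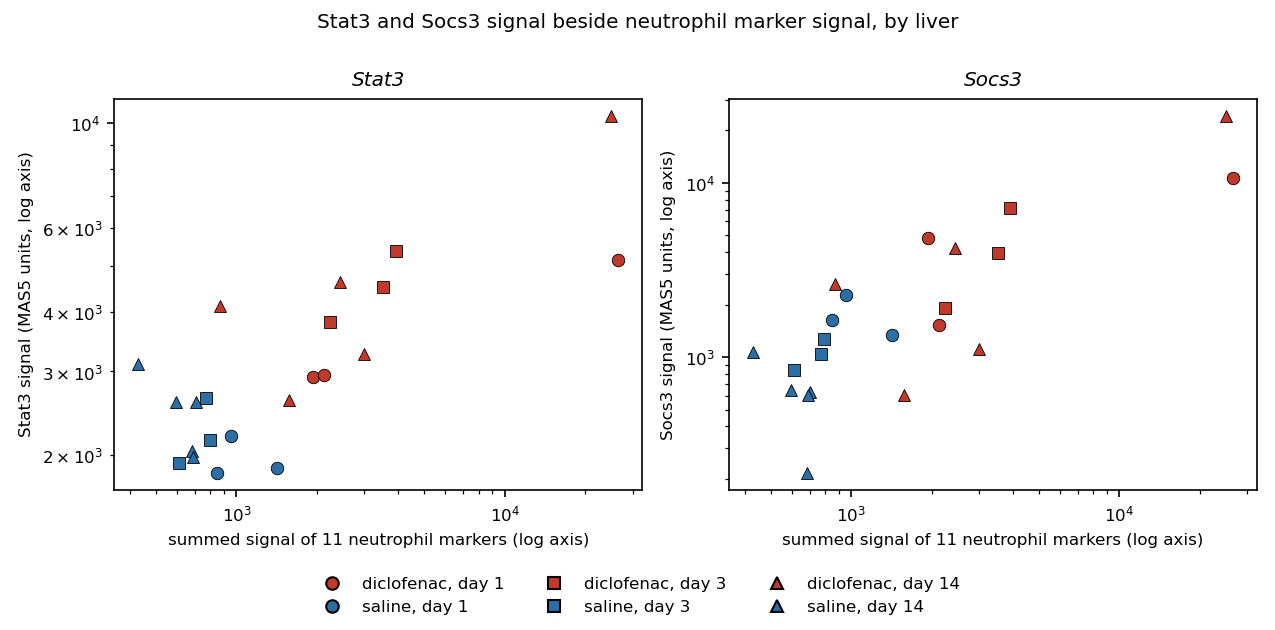
Signal of Stat3 (left) and Socs3 (right) against the summed signal of 11 neutrophil markers in each liver, both axes log scaled in MAS5 units, with diclofenac livers in red and saline livers in blue. The 2 diclofenac livers at the far right, with sums of 26519.8 and 24962, have the highest Socs3 signals. The diclofenac livers of day 14 with sums of 871 and 1577 have Stat3 signals of 4118 and 2618, the first above all saline livers and the second within their range. The part of neutrophils in these signals was not tested.

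Signs of RNA quality moved with treatment at day 14. For the Gapdh and Actb control probe sets, 3' signal exceeded 5' signal by a log2 ratio of 0.736 ± 0.049 in diclofenac livers and 0.624 ± 0.063 in saline livers (SD, n = 5 each, exact permutation p = 0.0238, two-sided). On day 1 the ratio was 0.584 ± 0.022 in diclofenac livers and 0.594 ± 0.030 in saline livers, and on day 3 it was 0.830 ± 0.1002 and 0.776 ± 0.045 (SD, n = 3 each, exact permutation p = 0.7 and 0.6). Its part in the day 14 differences was not tested. In saline livers Lifr lay between 3625 and 5352 at day 14, against 10064 to 14839.5 at days 1 and 3, and time and array handling cannot be told apart there.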

How the data were processed

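Liver RNA of 22 mice was measured on 1 Affymetrix Mouse 430 2.0 array each. The authors deposited linear MAS5 signal intensities, one per probe set, scaled to a trimmed mean of 500.0 after leaving out 2% at either end. Genome builds, detection calls and scan dates are not given in the sources used here. The number of arrays limits the precision.

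Signals were taken to log2. Of the probe sets, 34958 had 1 gene symbol in GEO's platform annotation, 932 several and 9211 none, and the probe set of highest mean stood for a gene. Models were fitted in limma 3.58.1 (R 4.3.3; lmFit, eBayes with a variance trend) on the 12 arrays of days 1 and 3, the 10 of day 14, or all 22 for the mean of 3 times, with Benjamini-Hochberg adjustment over all genes tested and a threshold of 0.05. Exact permutation tests were two-sided.

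The members and lists were chosen with earlier results of these data known. Named were all members, any gene of the pathway lists, the 8 STAT3 targets of largest difference and the 5 genes most like Socs3 and Stat3. Alternatives varied the filter (none, or the 60th percentile), the scaling (quantile, array median), the value added before log2, the choice of probe set, the arrays in a model, a replicate block, the methods' t-test and each array left out. Promoters are from RefSeq (GRCm38.p6), with all 9 members matched. The sequence of 1 promoter match is not reported here.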

Additional observations from a re-analysis of the deposited data

Results flagged for a closer look

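In 2 of 18 member groups of 5 livers at day 14, a single liver lay far from the others of its group, measured by its gap to the nearest liver as a share of the group's range on the log2 scale. Chance alone would be expected to give about 1 in 20 groups. Both concern diclofenac day 14 replicate 3. Its Osmr signal was 3485 against 252.2 to 449 in the other diclofenac livers, a gap of 0.78 of the range. Its Lifr signal was 1199 against 3753 to 4269, a gap of 0.899 of the range. The same liver had the highest Stat3, Socs1, Socs3 and Il6 signals of its group and a neutrophil marker sum of 24962. The cause was not tested.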

How the results depend on the processing

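Stat3 over the 3 times passed under every alternative run. For all genes, the count called at day 1 (0) was 188 under the methods' t-test and 0 to 5 when 1 liver was left out. At day 3 (26) it was 16 without a filter, 13 with probe sets averaged, 145 on that day's own arrays, 1 with all 22 arrays, 178 without both livers of highest Socs3 signal (chosen after seeing the data), 321 under the methods' t-test, 0 after its adjustment, and 0 to 178 with 1 liver left out. At day 14 (0) it was 3 after quantile normalization, 15 after median centring, 2 with the array median added, 133 with all 22 arrays, 123 without both livers, 284 under the methods' t-test, and 0 to 123 with 1 liver left out, the highest without diclofenac replicate 3. Members called at day 3 (0) were 1 on its own arrays, 2 without both livers, 2 under the methods' t-test and 0 to 2 with 1 liver left out. Over days 1 and 3 (1) they were 0 with all 22 arrays and 0 to 3 with 1 liver left out, and over the 3 times (1) 3 without both livers and 1 to 3 with 1 left out.

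Some differences that did not pass the test changed sign. Without both livers, as without the one of that day, Osmr at day 1 was -0.15, Jak2 at day 1 0.069, Il6st at day 14 -0.020 and Jak1 at day 14 -0.050. With 1 liver left out these ran from -0.15 to 1.14, -0.19 to 0.069, -0.020 to 0.25 and -0.050 to 0.079. With probe sets averaged, Osmr at day 3 was -0.17 and Jak2 over the 3 times 0.039. The day 3 minus day 1 difference of Socs3 ran from -0.21 to 1.19, and day 14 minus the earlier times from -0.38 to 0.11 for Stat3 and from -0.045 to 1.28 for Socs3. The cause was not tested.

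Replicate numbers were not used to pair the animals. Of 11 same-numbered pairs, 1 had a residual correlation over 0.1, a check that cannot show that no pairing existed. With a replicate block, 6 genes were called at day 3, 1 at day 14, and 2 members over days 1 and 3 (Stat3 and Lifr, both adjusted p = 0.0433).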

Other observations

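Hamp, the hepcidin gene of the STAT3 target list, ran opposite to the acute-phase genes at day 14, although it was not called (limma adjusted p = 0.43). It was picked out after its values were seen. Its signal ranged from 209 to 93640.2 in diclofenac livers and from 41914 to 57643 in saline livers, with a median of 13968 against 53605. The log2 difference was -2.95 at day 14, and -0.24 and 0.08 at days 1 and 3. The highest value again belonged to diclofenac replicate 3.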
